A study of Homo sapiens with 6 samples.

Results

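The 49 genes described here belong to a pair of linked stress programs, the ATF4 amino acid response and the unfolded protein response of the endoplasmic reticulum (ER). They were chosen by symbol and with earlier results of these data known, so their shares beside those of all genes are descriptions only. All 49 were among the 25680 gene symbols in the files and passed the filter on low counts. By role they were 7 transcription factors of the ATF4 pathway, 5 ATF4 target and feedback genes, 8 enzymes of amino acid and one-carbon synthesis, 11 tRNA synthetases, 4 sensors and factors of the unfolded protein response, 11 ER chaperones and folding enzymes, and 3 genes of ER-associated degradation. The study took U87 cells, an established human glioblastoma line with a wild-type genotype, exposed all of them to 500 nM of the rhodamine-tagged cyclic peptide EPP6 for 1 h, and detached and sorted them by rhodamine fluorescence. The high uptake group was the brightest 30% of cells and the low uptake group the dimmest 30%, with 3 RNA-seq libraries each, numbered 2, 3 and 4. Both groups carried the peptide, so no untreated cells stand beside them, and a single cell line was used. Nothing says that the libraries of a group came from separate cultures, so p-values here measure a spread among libraries that may be technical.

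ATF4 is a transcription factor whose protein is made when the initiation factor eIF2 is phosphorylated, by GCN2 (EIF2AK4) when uncharged tRNA accumulates or by PERK (EIF2AK3) when unfolded proteins accumulate in the ER. It switches on amino acid transporters, enzymes of amino acid synthesis and tRNA synthetases, together with DDIT3 (CHOP) and the feedback gene TRIB3. PERK shares the ER with IRE1 (ERN1), which splices the mRNA of XBP1, and with ATF6, and these branches raise chaperones and degradation genes. Much of this control acts on protein or on splicing, which gene-level read counts do not measure.

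Total counts ranged from 13712263 in high replicate 3 to 40742857 in high replicate 2. The first principal component, with 38% of the variance, separated high from low uptake, and on the second, with 31.5%, both libraries numbered 2 lay at the same end. Low replicates 3 and 4 were closer to each other (chi-square per degree of freedom 2.44) than the other pairs within a group (12.2 to 20.8).

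Of 8 markers used for glioma lines, VIM and CD44 were abundant, at 9886 to 11127 and 1734 to 2033 counts per 1000000 reads (CPM), and NES was at 18.7 to 25.4 CPM. GFAP and OLIG2 did not exceed 1.47 CPM, and SOX2 and S100B did not exceed 0.0518 CPM. CHI3L1, a secreted protein of mesenchymal glioma, had 117.7, 120.7 and 100.4 CPM in high uptake, against 33.7, 64.3 and 72.9 CPM in low uptake, which did not overlap but did not pass by edgeR (log2 0.99, adjusted p 0.0890). OLIG2 (-0.46) and CD44 (0.16) did not overlap either and did not pass. The 6 immune markers summed to 258.1 to 285.1 CPM in high uptake, against 234.0 to 283.4 CPM in low uptake. CD68, at 233.9 to 283.1 CPM over the 6 libraries, made up nearly all of that sum, and none of the others (PTPRC, CD3E, CD14, LYZ and ITGAM) exceeded 1.04 CPM. The 6 epithelial markers summed to 2.05 to 3.12 CPM in high uptake, against 2.1 to 2.68 CPM in low uptake, with EPCAM and KRT8 highest and CDH1 and KRT5 at or under 0.0909 CPM. The 4 endothelial markers summed to 5.5, 6.01 and 6.18 CPM in high uptake, against 7.04, 7.32 and 7.92 CPM in low uptake, mostly KDR, and CDH5 did not exceed 0.244 CPM. The 5 neuronal markers summed to 311.8 to 350.5 CPM in high uptake, against 261.1 to 312.5 CPM in low uptake, mostly TUBB3, and RBFOX3 did not exceed 0.742 CPM. Of these SNAP25 was called higher (log2 0.80, adjusted p 0.00987 by edgeR) and MAP2 lower (-0.40, adjusted p 0.0415 by edgeR). The part of these markers in the results was not tested.

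With edgeR's quasi-likelihood test and Benjamini-Hochberg adjustment over all 14598 genes tested, 2 of the 49 genes passed an adjusted p of 0.05, against 4.29% of all genes tested. Both were genes of the ATF4 side, TRIB3 and ASNS, and lower in high uptake, against 1.26% of all genes called lower, and 0 were higher, against 3.03%. At an unadjusted p under 0.05 there were 12 lower genes (against 7.97% of all genes) and 5 higher (against 10.4%), 17 of 49 in all, against 18.4%. DESeq2 called 3 lower (against 1.99%) and 1 higher (against 4%), with 5.99% of all genes in either direction, and limma-voom called 2, both lower, against 4.4% of all genes in either direction. The share called, 4.08%, is near that of all genes, so the number of calls is not a result about these genes. Without high replicate 3, 4 of the 49 passed (TRIB3, ASNS, DDIT3 and EDEM1), and without any 1 of high replicates 2 and 4 and low replicates 2 and 3, 1 passed, TRIB3.

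The 49 log2 fold changes, high over low uptake, ran from -0.95 to 0.30 with a median of -0.07, and 33 were negative and 16 positive. Over all genes tested the median was -0.00 and 50.7% were negative. In 20 genes the libraries of the groups did not overlap (40.8%, against 24.4% of all genes), 14 of them lower in high uptake (against 11.4%) and 6 higher (against 13%). The 20 factors, targets and synthesis enzymes of the ATF4 side had a median of -0.16, with 9 genes not overlapping and lower and 1 not overlapping and higher. The 18 genes of the ER side had a median of 0.04, with 0 not overlapping and lower and 5 not overlapping and higher. These were bulk libraries of sorted cells, in which fewer cells with a transcript and less of it per cell cannot be told apart.

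**Figure D1:**
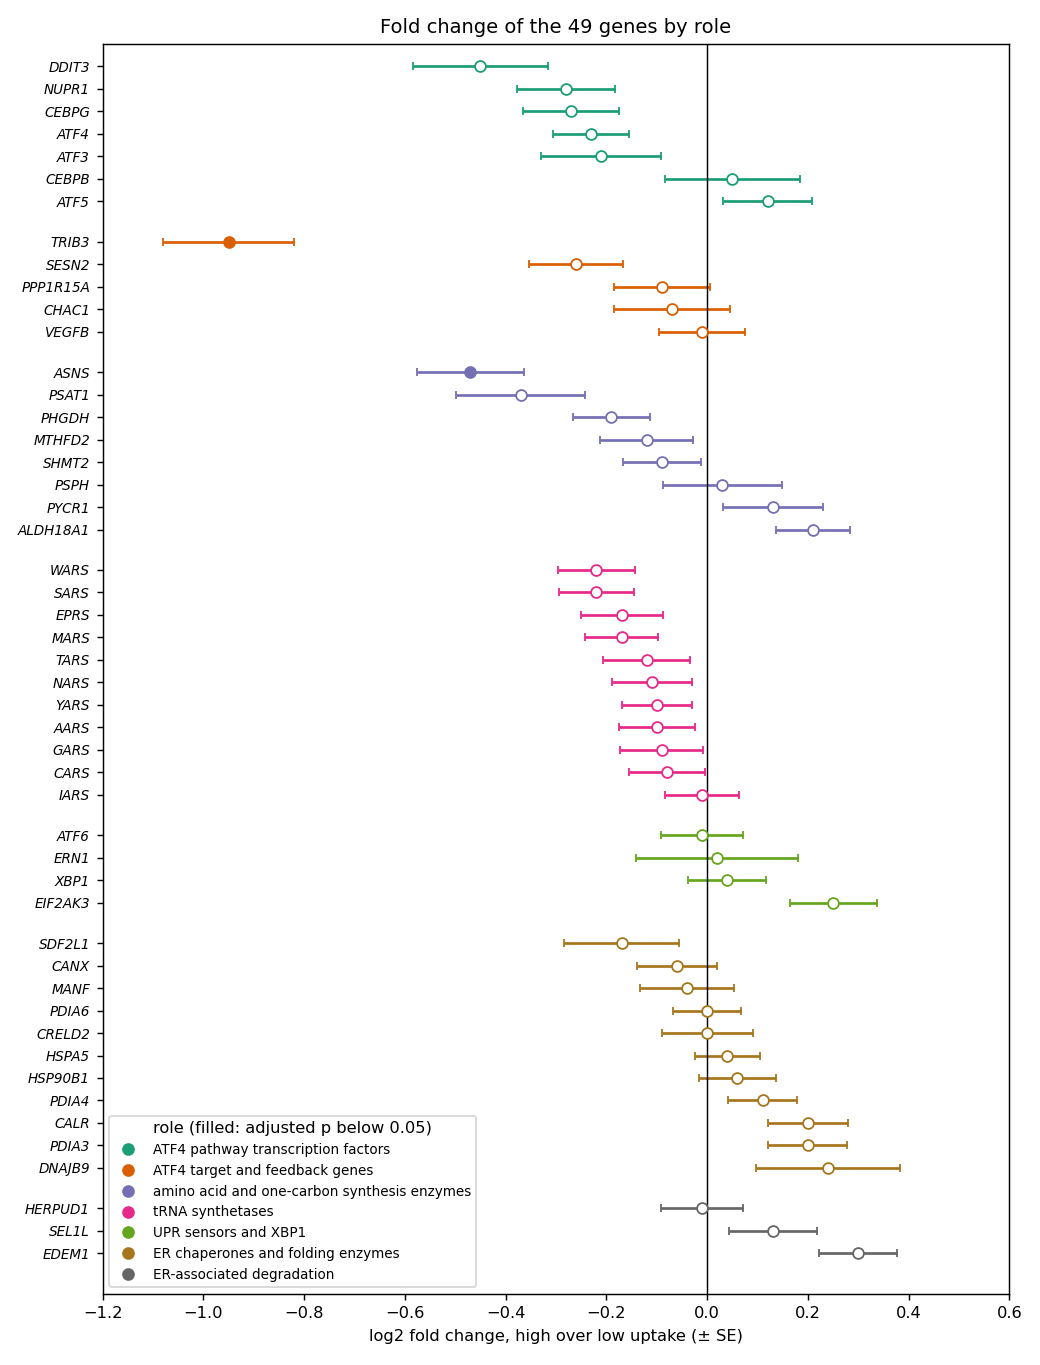
Log2 fold change of each of the 49 genes, high over low uptake, on the horizontal axis, grouped and coloured by role, with bars of 1 SE (n = 3 libraries per group). Filled points passed an adjusted p of 0.05 (TRIB3 and ASNS), and all 11 tRNA synthetases lie left of 0, from -0.22 to -0.01.

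The number of calls depended on how the libraries were modelled. When each library's trend of counts with the GC content of the gene was removed, the common biological coefficient of variation was 0.0669, against 0.0990 as tested. In that fit 13 of the 49 genes were called lower (against 7.72% of all genes) and 6 higher (against 10.3%), 19 in all, against 18% of all genes. The 20 factors, targets and synthesis enzymes then held 9 lower and 1 higher call, the tRNA synthetases 4 lower and 0 higher, and the ER side 0 lower and 5 higher. Each of the 19 genes had the same sign of fold change in both fits. Both fits used the same counts, so this is no separate result.

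**Figure D2:**
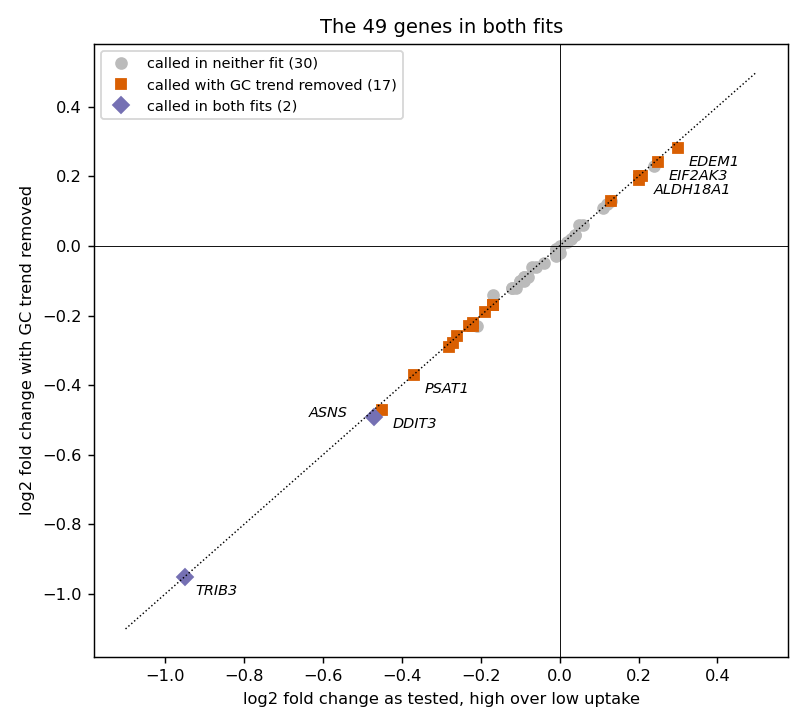
Log2 fold change of the 49 genes as tested (horizontal) and with each library's GC trend removed (vertical), high over low uptake in both, with equality dotted. Points lie near the dotted line throughout, 2 genes were called in both fits, 17 with the GC trend removed alone and 30 in neither.

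Among ATF4 target and feedback genes, TRIB3 gave the largest difference of the 49. TRIB3 is a pseudokinase that ATF4 and CHOP induce and that dampens their activity. It had 9.63, 13.2 and 13.5 CPM in high replicates 2, 3 and 4, against 23.3, 22.9 and 23.2 CPM in low replicates 2, 3 and 4, from 178 to 450 reads in high uptake and 474 to 901 reads in low uptake. The low libraries were nearly level, high replicate 2 was the lowest, and the groups stood well apart. TRIB3 averaged 12.1 ± 2.16 CPM (SD, n = 3) in high uptake and 23.1 ± 0.231 CPM (SD, n = 3) in low uptake, a fold of 0.519. The log2 fold change was -0.95 (SE 0.130, 95% interval -1.23 to -0.66), with an adjusted p of 0.00279 by edgeR. TRIB3 passed in each of the 17 alternatives tried, with log2 fold changes of -1.04 to -0.78 and adjusted p of 7.11e-09 to 0.0121.

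SESN2, a leucine sensor that restrains mTORC1, had 84.5, 104.0 and 100.7 CPM in high uptake, against 110.8, 120.9 and 114.8 CPM in low uptake. The groups did not overlap, but its log2 fold change of -0.26 (SE 0.0930) did not pass by edgeR (adjusted p 0.152), whereas it passed with the GC trend removed (adjusted p 0.00610). Without high replicate 2 the SESN2 value was -0.17. The other 3 genes of this role lay between -0.09 and -0.01 on the log2 scale and overlapped. CHAC1, which degrades glutathione, had 15.1, 13.7 and 11.9 CPM in high uptake, against 14.2, 15 and 13.4 CPM in low uptake, with a 95% interval of -0.32 to 0.19 for its log2 fold change of -0.07. PPP1R15A (GADD34), which brings the phosphatase that reverses eIF2 phosphorylation, was at -0.09 (adjusted p 0.678), and the growth factor VEGFB at -0.01. Of the 5 genes of this role edgeR thus called 1, TRIB3, lower (against 1.26% of all genes), and their median was -0.09.

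Of the enzymes, ASNS passed. Asparagine synthetase makes asparagine from aspartate and is the best-studied target of the amino acid response. ASNS had 68.5, 64.7 and 67.3 CPM in high uptake, against 108.7, 87.0 and 82.0 CPM in low uptake. The high libraries were nearly level, low replicate 2 was the highest and the groups did not overlap. The log2 fold change was -0.47 (SE 0.106, 95% interval -0.70 to -0.24), a fold of 0.721, with an adjusted p of 0.0306 by edgeR. This call was lost without high replicate 2 (adjusted p 0.0569) or high replicate 4 (0.104), and also without low replicate 2 (0.0503) or low replicate 3 (0.0560), and with the trend with gene length removed (0.0505), within a range of 4.60e-06 to 0.104 over the alternatives. The log2 fold change stayed between -0.55 and -0.34.

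The serine pathway genes PHGDH, PSAT1 and PSPH make serine from a glycolytic intermediate in that order. PSAT1 had 128.0, 103.3 and 113.6 CPM in high uptake, against 181.8, 131.9 and 132.6 CPM in low uptake, and low replicate 2 again stood highest. It stood at a log2 fold change of -0.37 (SE 0.128) with an adjusted p of 0.139 by edgeR, and at -0.20 (adjusted p 0.281) without low replicate 2. PHGDH had 180.6, 196.9 and 179.5 CPM in high uptake, against 203.2, 223.5 and 207.6 CPM in low uptake, a log2 fold change of -0.19 (adjusted p 0.219 by edgeR). Neither gene's groups overlapped, and both passed with the GC trend removed (adjusted p 0.0168 for PSAT1 and 0.00914 for PHGDH). PSPH, the last step, was at 0.03 with overlapping groups.

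The mitochondrial one-carbon enzymes SHMT2 and MTHFD2 were at -0.09 and -0.12 and overlapped. The proline pathway had values on the other side of 0. ALDH18A1, which makes the precursor of proline from glutamate, had 110.5, 107.1 and 105.9 CPM in high uptake, against 93.9, 92.0 and 93.7 CPM in low uptake. It was the only enzyme of the 8 whose groups did not overlap with high uptake above, at 0.21 on the log2 scale (SE 0.0735), with an adjusted p of 0.147 by edgeR and 0.00969 with the GC trend removed. PYCR1, which completes proline synthesis, was at 0.13 and overlapped. Of the 8 enzymes edgeR called 1, ASNS, lower (against 1.26% of all genes), and their median was -0.11.

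**Figure D3:**
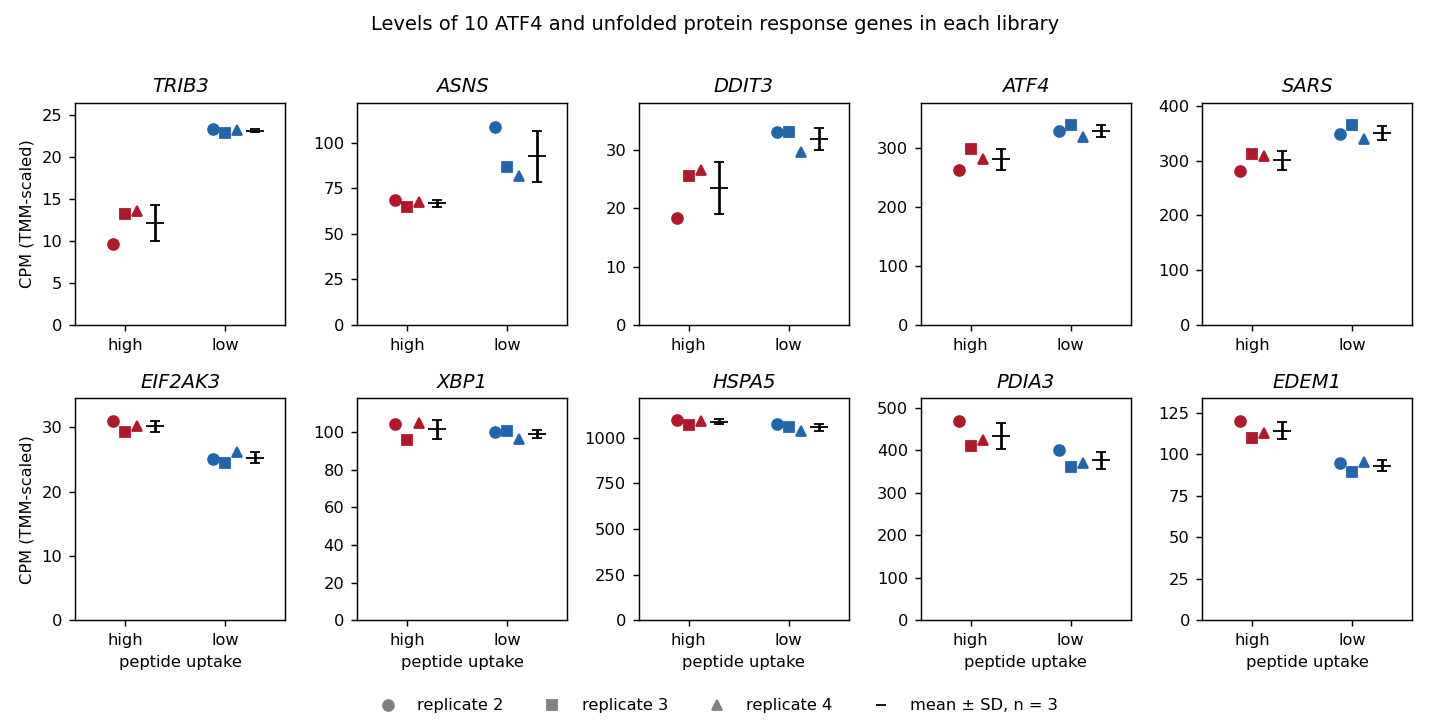
CPM in every library for 10 genes, with high uptake left of low uptake, symbols by replicate number and mean with SD (n = 3) beside them, on axes that start at 0. TRIB3, ASNS, DDIT3, ATF4 and SARS lie lower in all high libraries than in all low libraries, EIF2AK3, PDIA3 and EDEM1 lie higher, and XBP1 and HSPA5 overlap.

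Among the 7 transcription factors edgeR called 0, limma-voom 0 and DESeq2 1, which was lower, against 1.99% of all genes. At an unadjusted p under 0.05, 4 were lower (against 7.97% of all genes) and 0 higher (against 10.4%). ATF4 itself had 262.7, 299.1 and 282.8 CPM in high uptake, against 329.2, 339.4 and 319.3 CPM in low uptake. The groups did not overlap, with a log2 fold change of -0.23 (SE 0.0752, 95% interval -0.39 to -0.06) and an adjusted p of 0.124 by edgeR. ATF4 passed with the GC trend removed (adjusted p 0.00778) and with replicate number as a block (0.00183). ATF4 had the highest level per length of the 20 factors, targets and enzymes, a mean of 365.6 transcripts per 1000000 (TPM), and TRIB3 the lowest, 14.8 TPM.

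DDIT3, or CHOP, is the pro-apoptotic factor downstream of ATF4. It had 18.3, 25.5 and 26.6 CPM in high uptake, against 33.0, 33.0 and 29.6 CPM in low uptake, and high replicate 2 was the lowest library here as for TRIB3. The log2 fold change of -0.45 (SE 0.134) did not pass by edgeR (adjusted p 0.0865) and passed by DESeq2 (adjusted p 0.0247), with the GC trend removed (0.0323), with no filter (0.0188) and without high replicate 3 (0.0397). It also passed with replicate number as a block (0.0103). It did not pass by limma-voom (0.0727), with the length trend removed (0.164) or without any 1 of the other 5 libraries (0.102 to 0.217). Without high replicate 2 the value was -0.29. In GENCODE 29, 355 of the 1307 exon bases of DDIT3 overlap exons of MARS, a member of the tRNA synthetases, on the opposite strand. The library kit was directional, but how the counting used strand is not given, so reads of the pair may not have been separated. MARS was the more abundant, with 182.4, 188.4 and 181.9 CPM in high uptake, against 210.8, 212.9 and 196.4 CPM in low uptake, and its part in the DDIT3 value was not tested.

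CEBPG, a dimer partner of ATF4, had 43.8, 37.1 and 45.1 CPM in high uptake, against 52.9, 48.5 and 50.8 CPM in low uptake. NUPR1, a stress-induced chromatin protein, had 32.7, 33.2 and 29.9 CPM in high uptake, against 40.1, 41.2 and 34.5 CPM in low uptake. Neither pair of groups overlapped, at log2 fold changes of -0.27 and -0.28 that did not pass by edgeR (adjusted p 0.159 and 0.149) and passed with the GC trend removed (0.00606 and 0.0171). The other 3 factors overlapped between groups. ATF3, at -0.21, had its lowest value, 46.8 CPM, in high replicate 2, against 59.1 and 66.6 CPM in the other high libraries and 63.3 to 69.7 CPM in the low libraries, and was at -0.08 without that library. CEBPB was at 0.05 and varied more within than between groups, with 208.5, 250.2 and 282.0 CPM in high uptake, against 196.4, 238.0 and 282.6 CPM in low uptake. ATF5 was at 0.12, and 626 of its exon bases overlap NUP62 on the opposite strand.

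Promoter sequences from RefSeq (GRCh38.p14, 250 bases before to 50 after the gene start) were found for 41 of the 49 genes, and are described because the 2 called genes and the tRNA synthetases are all known ATF4 targets. NUPR1, PSPH, SHMT2, PYCR1, GARS, SARS, YARS and PDIA3 were not matched. The letters TGATGNAA, the core of the C/EBP-ATF composite element that ATF4 binds, were searched on both strands. They occurred in 10 of the 41 promoters (24.4%), against 3.62% of 35116 promoters of the same length. By role, 6 of 8 tRNA synthetases held it (AARS, NARS, IARS, TARS, MARS and CARS), and ATF3, CHAC1, ASNS and HERPUD1 were the others. Since the genes were chosen as members of these pathways, the higher share is tied to that choice and is no separate result.

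The 120 bases before the start are shown for the 2 genes that passed, with the fixed letters of a match in capitals, for TRIB3 on the plus strand at chr20:381175-381294 and for ASNS on the minus strand at chr7:97872409-97872528. The 30-base windows below them show the same letters in CHAC1 (minus strand, chr15:40953251-40953280), which gave nearly equal levels in both groups, and in 6 tRNA synthetases: AARS (plus, chr16:70289675-70289704), NARS (minus, chr18:57621804-57621833), IARS (plus, chr9:92293692-92293721), TARS (minus, chr5:33440956-33440985), MARS (minus, chr12:57488053-57488082) and CARS (plus, chr11:3057407-3057436). Each is printed 5′ to 3′ on the strand that carries the match.
TRIB3: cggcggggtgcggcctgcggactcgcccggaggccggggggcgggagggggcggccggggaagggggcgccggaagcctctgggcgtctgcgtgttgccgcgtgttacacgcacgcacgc
ASNS: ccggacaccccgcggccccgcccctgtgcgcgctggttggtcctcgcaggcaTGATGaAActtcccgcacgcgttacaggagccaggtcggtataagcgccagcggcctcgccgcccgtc
CHAC1: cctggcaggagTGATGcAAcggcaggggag
AARS: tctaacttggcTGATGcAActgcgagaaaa
NARS: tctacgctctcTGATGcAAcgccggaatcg
IARS: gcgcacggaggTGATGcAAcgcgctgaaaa
TARS: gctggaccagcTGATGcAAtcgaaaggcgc
MARS: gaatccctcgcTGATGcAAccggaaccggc
CARS: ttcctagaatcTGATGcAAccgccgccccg

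In the stretch shown, TRIB3 has no match, and ASNS has 1. The 10 genes that hold the letters spanned log2 fold changes from -0.47 (ASNS) to -0.01 (IARS and HERPUD1). A match is a description of letters and not evidence of binding.

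The 11 tRNA synthetases, which charge tRNAs with their amino acids, gave small values on one side of 0. All 11 log2 fold changes were negative, from -0.22 to -0.01 with a median of -0.11, although IARS turned to 0.03 without low replicate 2. EdgeR called 0 of them, and DESeq2 and limma-voom each called 0. At an unadjusted p under 0.05, 3 were lower, against 7.97% of all genes. In 5 of the 11 (SARS, WARS, YARS, EPRS and MARS) the groups did not overlap. All 5 were lower in high uptake, against 11.4% of all genes. SARS, the seryl enzyme, had the smallest p of the role, with 280.1, 312.8 and 308.7 CPM in high uptake, against 347.8, 364.3 and 339.9 CPM in low uptake. Its log2 fold change was -0.22 (SE 0.0745) and did not pass by edgeR (adjusted p 0.127), and passed with the GC trend removed (0.00462).

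WARS, the tryptophanyl enzyme, was close to SARS, with 155.3, 170.6 and 177.0 CPM in high uptake, against 195.3, 196.5 and 191.8 CPM in low uptake, and a log2 fold change of -0.22 (adjusted p 0.155 by edgeR). EPRS and MARS, parts of the multi-synthetase complex, were both at -0.17 (EPRS at -0.11 without low replicate 2), and with SARS and WARS these were the 4 that passed with the GC trend removed. TARS, NARS, YARS, AARS, GARS and CARS lay between -0.12 and -0.08. IARS, the isoleucyl enzyme and the most abundant per length of the 11 at 339.9 TPM, was at -0.01 (95% interval -0.18 to 0.15). Each of the 11 had its lowest library among the high uptake ones, and its highest was low replicate 2 in 6 genes and low replicate 3 in 5. Summed over the 11 genes the level was 2900, 2855 and 2989 CPM in high uptake, against 3298, 3121 and 3018 CPM in low uptake, which did not overlap. Summed TPM were 2032, 1971 and 2120 in high uptake, against 2296, 2112 and 2052 in low uptake, which overlapped.

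**Figure D4:**
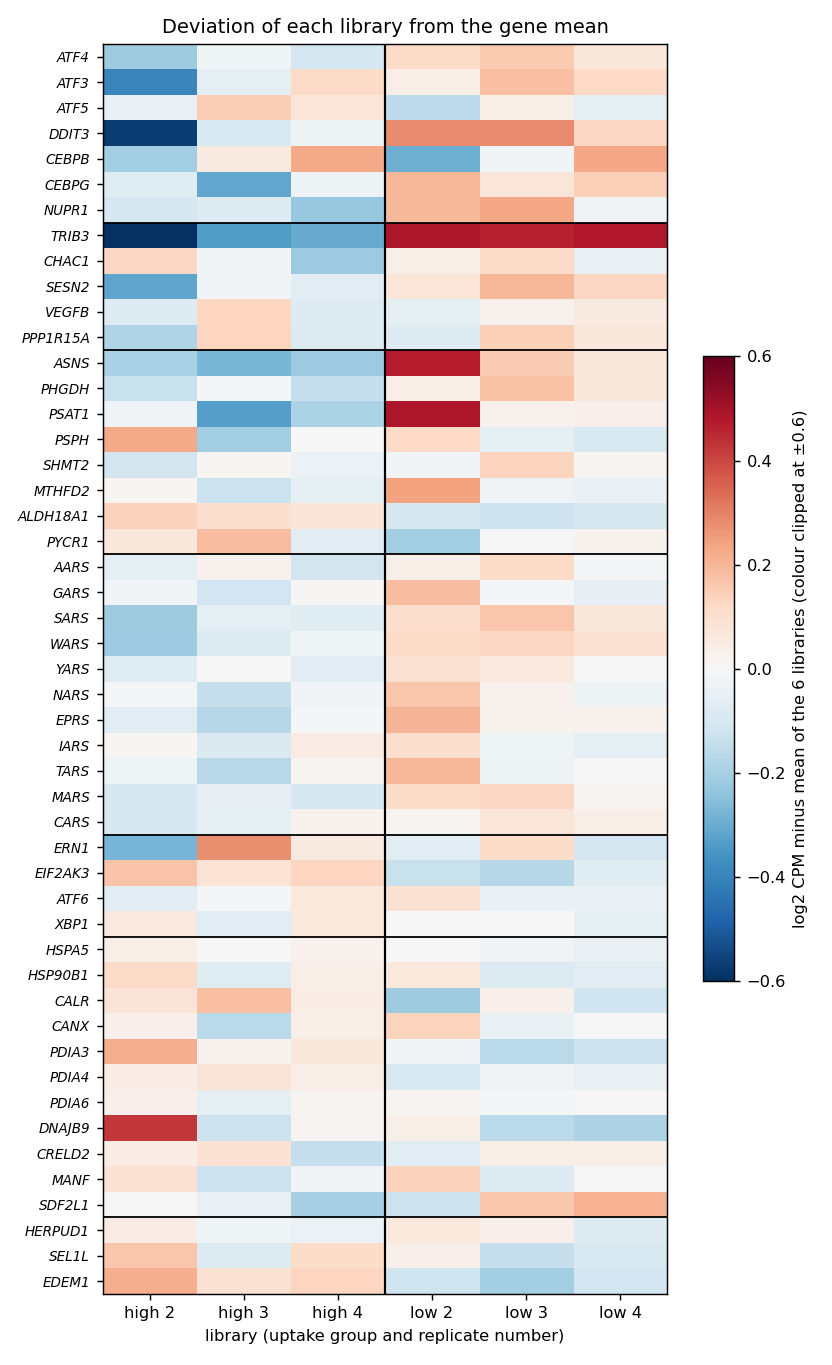
Log2 CPM of each of the 49 genes in each library minus the gene's mean over the 6 libraries (colour, clipped at ±0.6), with high uptake libraries left of low uptake libraries and roles divided by lines. TRIB3 is blue in all 3 high libraries and red in all 3 low libraries, ASNS and PSAT1 are reddest in low replicate 2, and DDIT3 and ATF3 are bluest in high replicate 2.

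The unfolded protein response sensors and XBP1 gave 0 calls by edgeR, and 0 by DESeq2 and by limma-voom. At an unadjusted p under 0.05, 1 was higher, against 10.4% of all genes. EIF2AK3, or PERK, the kinase of the ER branch that feeds ATF4, had 31.0, 29.2 and 30.1 CPM in high uptake, against 25.1, 24.5 and 26.2 CPM in low uptake. The groups did not overlap and both were tight, with a log2 fold change of 0.25 (SE 0.0865) that did not pass by edgeR (adjusted p 0.134) and passed with the GC trend removed (0.0192). XBP1, the factor spliced by IRE1, had 104.2, 95.6 and 104.7 CPM in high uptake, against 100, 100.4 and 96.5 CPM in low uptake. The groups overlapped, and the 95% interval of its log2 fold change of 0.04 was -0.13 to 0.21. ATF6 was at -0.01 (95% interval -0.19 to 0.17). ERN1, IRE1 itself, had 4.23 to 6.23 CPM over the 6 libraries and was the least abundant of the 49 genes per length (3.14 TPM). It was at 0.02 with a wider interval, -0.33 to 0.37.

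The ER chaperones and folding enzymes were among the most abundant of the 49 genes per length, with CALR highest at 1486 TPM, HSP90B1 at 898.1 TPM and HSPA5 at 655.7 TPM. EdgeR called 0 of the 11, and DESeq2 and limma-voom each called 0. At an unadjusted p under 0.05, 2 were higher (against 10.4% of all genes) and 0 lower (against 7.97%). Their median log2 fold change was 0.04. HSPA5 (BiP), the chaperone that holds the sensors inactive and the usual marker of the response, had 1098, 1071 and 1091 CPM in high uptake, against 1074, 1056 and 1038 CPM in low uptake. The groups overlapped and every library lay within a narrow band. The log2 fold change was 0.04 (SE 0.0644), with a 95% interval of -0.10 to 0.18 and an adjusted p of 0.797 by edgeR.

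In CALR, PDIA3 and PDIA4 the groups did not overlap and high uptake lay above. These were 27.3% of the 11, near the 24.4% of all genes that did not overlap in either direction (13% higher). Their number is thus not a result about the chaperones. PDIA3, the disulfide isomerase that works with calreticulin on glycoproteins, had the smallest p of the role, with 468.5, 409.8 and 422.7 CPM in high uptake, against 399.4, 360.7 and 368.9 CPM in low uptake. The log2 fold change was 0.20 (SE 0.0785), with an adjusted p of 0.188 by edgeR and 0.0101 with the GC trend removed. PDIA3P1 is alike over 42.6% of a PDIA3 transcript, so reads may have been split between the copies. CALR, the lectin chaperone calreticulin, had 1230, 1319 and 1200 CPM in high uptake, against 1005, 1188 and 1070 CPM in low uptake, a log2 fold change of 0.20 (adjusted p 0.206 by edgeR and 0.0107 with the GC trend removed). PDIA4 was at 0.11 and passed in neither fit.

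CANX, the membrane partner of calreticulin, was at -0.06, on the other side of 0 from CALR, and overlapped between groups. HSP90B1 (GRP94), PDIA6, CRELD2, MANF and SDF2L1 lay between -0.17 and 0.06. DNAJB9, a BiP co-chaperone, was at 0.24 with an SE of 0.143, and high replicate 2, at 18.3 CPM, stood above the other high libraries (12.5 and 13.8 CPM) and the low libraries (12 to 14 CPM). Without that library DNAJB9 was at 0.05. Summed over the 11 genes, the high libraries held 5627, 5356 and 5465 CPM and the low libraries 5285, 5214 and 5120 CPM. These sums did not overlap, at a log2 ratio of 0.07, but abundant genes weigh most in them. The mean of CALR was 1250 CPM for the high libraries and 1088 CPM for the low ones, and that of PDIA3 433.6 and 376.3 CPM. Of the 11 log2 fold changes 6 were positive and 5 negative, so the sum does not show a rise of the whole role.

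The ER stress response element (CCAAT and CCACG with 9 free letters between them) is the site that ATF6 and XBP1 use in chaperone promoters. It occurred on either strand in 6 of the 41 promoters (14.6%), against 0.0769% of all promoters. They were XBP1 and 5 of 10 chaperones (HSPA5, HSP90B1, CALR, CANX and CRELD2). Here too the higher share is tied to the choice of genes and is no separate result. The unfolded protein response element TGACGTGG occurred in 1 of the 41, ALDH18A1, against 0.729% of all promoters. The windows of 4 genes are shown with the fixed letters in capitals, since the element is shared by chaperones with values on both sides of 0: HSPA5 (minus strand, chr9:125241385-125241414), CALR (minus, chr19:12938378-12938407), CANX (plus, chr5:179698773-179698802) and XBP1 (minus, chr22:28800597-28800626).
HSPA5: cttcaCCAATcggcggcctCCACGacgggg
CALR: accgaCCAATgatggtcgaCCACGcgtggg
CANX: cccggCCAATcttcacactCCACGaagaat
XBP1: gctggCCAATcgcggagggCCACGaccgta

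ER-associated degradation returns misfolded proteins to the cytosol for the proteasome. Of its 3 genes edgeR called 0 and limma-voom 0. At an unadjusted p under 0.05, 1 was higher (against 10.4% of all genes), and DESeq2 called 1 higher (against 4%). EDEM1, a mannosidase-like protein that picks out misfolded glycoproteins, had 120.1, 110.1 and 113.0 CPM in high uptake, against 94.9, 89.6 and 95.3 CPM in low uptake. The groups did not overlap, and its log2 fold change of 0.30 (SE 0.0774, 95% interval 0.13 to 0.46) was the largest positive value of the 49. The adjusted p was 0.0574 by edgeR, 0.0219 by DESeq2, 0.00133 with the GC trend removed, 2.25e-04 with replicate number as a block and 0.0447 without high replicate 3. It was 0.0525 by limma-voom, 0.0976 with the length trend removed, 0.0775 without both libraries numbered 2, and 0.0750 to 0.231 without any 1 of the other 5 libraries. SEL1L, the scaffold of the degradation complex, was at 0.13 and passed with the GC trend removed (adjusted p 0.0478) although its groups overlapped. HERPUD1, which organises the same complex, was at -0.01 (95% interval -0.19 to 0.17).

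Beyond the 49 genes, 163 further genes of the same pathways were listed, also with earlier results of these data known, and 156 of the 163 were tested. EdgeR called 9 of them (5.77%, against 4.29% of all genes), 5 lower and 4 higher in high uptake, and 3 to 12 when any 1 library was left out. Among 29 other tested ATF4 targets edgeR called 3 lower, against 1.26% of all genes, and 0 higher, against 3.03%. Of the 29, 16 were negative and 13 positive. DESeq2 called 5, all lower (against 1.99% of all genes), and limma-voom 4, all lower (against 4.4% in either direction). At an unadjusted p under 0.05, 8 were lower (against 7.97% of all genes) and 2 higher (against 10.4%). With the GC trend removed 8 were called lower (against 7.72% of all genes) and 4 higher (against 10.3%). SLC3A2, the heavy chain of the cystine and large neutral amino acid carriers, had 316.2, 361.7 and 358.3 CPM in high uptake, against 506.4, 515.3 and 478.5 CPM in low uptake. SLC3A2 fell by 0.53 on the log2 scale (SE 0.0774), with an adjusted p of 0.00372 by edgeR, and passed in each of the 17 alternatives. SLC7A11, the cystine carrier that pairs with SLC3A2, had 82.2, 85.4 and 130 CPM in high uptake, against 257.8, 185.5 and 198.4 CPM in low uptake. SLC7A11 fell by 1.11 on the log2 scale (SE 0.177), with an adjusted p of 0.00796 by edgeR, a larger size than that of TRIB3. The SLC7A11 call was lost without high replicate 3 (-1.03, adjusted p 0.146) and with no filter on low counts (-1.11, adjusted p 0.0895). BEX2 was also lower (-0.71, adjusted p 0.0254 by edgeR), at 2.30 to 2.67 CPM in high uptake, against 3.86 to 4.40 CPM in low uptake, and its call was lost without any 1 library other than high replicate 3 (adjusted p 0.0561 to 0.0983).

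The other cytosolic synthetases and their scaffold genes gave 0 calls of 11 tested by edgeR, and 0 by DESeq2 and by limma-voom. At an unadjusted p under 0.05, 3 were lower, against 7.97% of all genes. Of the 11, 9 were negative, with a median of -0.11. Of 15 tested mitochondrial tRNA synthetases 13 were negative, with a median of -0.13, and AARS2 was called lower (-0.47, adjusted p 0.0458 by edgeR), a call lost without high replicate 2 or 4 or low replicate 3 or 4 (adjusted p 0.137 to 0.174). The median of the same quantity over all genes was -0.00. The 13 eIF2 kinases and subunits gave 0 calls by edgeR, 1 higher at an unadjusted p under 0.05, and 0 by DESeq2 and by limma-voom, with a median of 0.00. With the GC trend removed the cytosolic list held 4 lower calls and 1 higher, the mitochondrial list 4 and 0, and the eIF2 list 0 and 1. Of all genes 7.72% were lower and 10.3% higher in that fit. VARS, VARS2, ATF6B and FGF21 were listed at 0 in all 6 libraries. A listed 0 can mean no transcript or reads that were not assigned to that symbol. Which of these holds for each gene was not tested, so the 0 values are not read as absence of expression.

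On the ER side of these lists, 20 of 29 tested chaperones and folding enzymes were positive, with a median of 0.10. With the GC trend removed 8 of the 29 were called higher (against 10.3% of all genes) and 0 lower (against 7.72%). P4HB, the main disulfide isomerase and a subunit of the collagen prolyl hydroxylase, had 1410, 1491 and 1323 CPM in high uptake, against 1058, 1181 and 1081 CPM in low uptake, and was called higher (0.35, adjusted p 0.0269 by edgeR). MLEC, a lectin that binds newly glycosylated proteins, was called higher as well (0.29, adjusted p 0.0372 by edgeR). These were the 2 edgeR calls of the 29 (6.9%), against 4.29% of all genes in either direction and 3.03% higher. The P4HB call was lost without either library numbered 2 or without low replicate 4 (adjusted p 0.0705 to 0.141), and the MLEC call without any 1 library other than high replicate 3 (adjusted p 0.0915 to 0.139). MLEC was also lost with upper quartile scaling (0.0521), with the length trend removed (0.101) and without both libraries numbered 2 (0.0957).

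KDELR3, a receptor that returns chaperones to the ER, had 82.4, 68.4 and 74.0 CPM in high uptake, against 50.3, 51.0 and 50.6 CPM in low uptake. It was called higher (0.57, SE 0.0897, adjusted p 0.00564 by edgeR) and passed in each of the 17 alternatives. It was 1 of 26 genes of ER import and export, of which SEC11C, a subunit of the signal peptidase, was called lower (-0.38, adjusted p 0.0425 by edgeR). Of the 26, 1 was thus called higher (against 3.03% of all genes) and 1 lower (against 1.26%). CREB3L2, a membrane-bound factor that controls secretory pathway genes, was called higher (0.29, adjusted p 0.0414 by edgeR) among 11 tested regulators with a median of 0.18. It was the 1 call of these 11, against 3.03% of all genes called higher. The SEC11C call was lost without any 1 library other than high replicate 3 (adjusted p 0.0788 to 0.154), as was that of CREB3L2 (0.0533 to 0.199). With the length trend removed both were lost (0.132 for SEC11C and 0.104 for CREB3L2). CREB3L2 was also lost with upper quartile scaling (0.0523), and SEC11C without both libraries numbered 2 (0.116). The 22 other degradation genes tested gave 0 calls by edgeR, DESeq2 and limma-voom, with a median of 0.03. At an unadjusted p under 0.05, 1 was higher (against 10.4% of all genes) and 1 lower (against 7.97%). With the GC trend removed the import and export list held 3 higher calls and 1 lower, the regulators 5 and 0, and the degradation genes 2 and 1. Of all genes 10.3% were higher and 7.72% lower in that fit.

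The authors' deposited list of 2305 gene symbols, which carries no values or directions, held 17 of the 49 genes, against 15.8% of all genes tested. Of the 17, 12 had a negative and 5 a positive log2 fold change in the edgeR fit. TRIB3, ASNS, ATF4, DDIT3, SARS, EIF2AK3 and EDEM1 were among them, and XBP1 and HSPA5 were not. The list came from the same libraries, and its label names a cut-off on p. The 17 were the same genes that were counted above by unadjusted p in the edgeR fit. Their presence in the list thus repeats that count and is no separate result.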

How the data were processed

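RNA-seq libraries of U87 cells sorted for high or low uptake of a rhodamine-tagged peptide came from a directional kit, per the labels' protocols. The tools fastp, STAR and featureCounts and the build hg19 are named in the submitters' processing notes. Their versions, the annotation and the use of strand are not given there. The deposited files held read counts per gene symbol, beside the authors' FPKM and TPM columns, per the file headers. Only counts entered tests. TPM served for levels per length, and FPKM for gene-model lengths. A further file holds the authors' list of symbols.

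Titles of the samples gave groups and replicate numbers. The 49 members and the pathway and marker lists were chosen with earlier results of these data known. EdgeR 4.0.16 in R 4.3.3 used filterByExpr (minimum count 10, minimum total 15), TMM scaling and the robust quasi-likelihood F-test, two-sided, without covariates, with Benjamini-Hochberg adjustment over 14598 genes and a threshold of 0.05. CPM are TMM-scaled. DESeq2 1.42.0 and limma 3.58.1 (voom) were alternatives. GC content, exon overlaps and transcript similarity (BLAST+ 2.17.0, 95% identity) came from GENCODE 29, and 96.6% of genes tested and all 49 members had a GC value. GC and length trends were fitted per library by loess (span 0.3). The scripts were tested on simulated data, in which edgeR called 32% of genes changed 1.3-fold and 72% of those changed 1.5-fold. A gene that was not called may thus still differ by such a fold. The simulated counts held no GC trend and no effect shared by equal replicate numbers, so these shares may not hold for the real libraries. Total counts of 13712263 to 40742857 and 3 libraries per group set the precision. Values were given per library for each member past the threshold, for ATF4, DDIT3, ASNS, HSPA5 and XBP1 and for the member of smallest p in each role. Others shown that way were added after their values were seen. From the pathway lists the genes past the threshold were named, up to 3 per list and direction. Alternatives were other scalings, filters and tests, a replicate block, GC and length trends and leaving out libraries.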

Additional observations from a re-analysis of the deposited data

How the results depend on the processing

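The count of members past the threshold was 2 as tested. It was 4 with DESeq2, 1 with the trend with gene length removed, 19 with the replicate block (where 21.8% of all tested genes passed), 19 with the GC trend removed, 25 with both the block and the GC trend removed, and 1 to 4 without any 1 library. The 9 genes of the pathway lists became 5 with the length trend removed, 45 with the replicate block, 42 with the GC trend removed, 59 with both, and 3 to 12 without any 1 library. The number of all genes past the threshold was 626 as tested and 3176 with the replicate block, 2624 with the GC trend removed, 4069 with both, and 232 to 738 without any 1 library. Higher genes made up 70.6% of calls as tested, 55.4% with the block, 57.1% with the GC trend removed and 52.4% with both. Same-numbered libraries deviated together with correlations of 0.452 (2), 0.304 (3) and 0.0873 (4), and 5 of the 6 libraries correlated best with their own number, a hint from the data and not the design. The exception was low replicate 4, at 0.216 with high replicate 3. Since the labels give no pairing, the block was not used in the test. The correlations do not decide whether the libraries were paired. With the block the common biological coefficient of variation was 0.0549, against 0.0990 as tested. In that edgeR fit 14 members were lower and 5 higher. They held ATF4 (adjusted p 0.00183), DDIT3 (0.0103), ATF3 (0.0189), PSAT1 (2.23e-05) and CALR (0.00506), none of them called as tested. Whether equal numbers mark pairs was not tested further. SLC7A11 was not called with the block (-1.13, adjusted p 0.155) or with the block and the GC trend removed (-1.12, adjusted p 0.121). The summed level of ER chaperones had a log2 ratio of 0.13 in TPM, against 0.07 in CPM.

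Of 833 alternative values of the members' log2 fold changes 33 reversed, in 11 members, none of them called. With the length trend removed VEGFB was at 0.02, ERN1 at -0.00, CRELD2 at 0.03, MANF at 0.03 and HERPUD1 at 0.02. ERN1 was at -0.02 with limma-voom. Without both libraries numbered 2, PSPH was at -0.02, IARS at 0.03 and ATF6 at 0.07. Without any 1 library the values spanned -0.08 to 0.19 for CEBPB, -0.16 to 0.03 for CHAC1, -0.09 to 0.03 for VEGFB, -0.10 to 0.11 for PSPH, -0.04 to 0.03 for IARS and -0.10 to 0.17 for ERN1. They spanned -0.04 to 0.03 for ATF6, -0.02 to 0.01 for PDIA6, -0.06 to 0.07 for CRELD2, -0.10 to 0.02 for MANF and -0.05 to 0.02 for HERPUD1. The cause of these changes was not tested.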
